A study of Rattus norvegicus with 6 samples.

Results

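Chemokines, interleukins and their receptors were followed in whole kidneys of salt-fed male rats, as the probe sets whose single gene symbol in the array annotation begins with Ccl, Cxcl, Ccr, Cxcr or Il and a digit, or with Cx3c. The rule found 116 of the 31099 probe sets in the table, and these stand for 91 genes. They comprise 37 probe sets of chemokine ligands (28 genes), 15 of chemokine receptors (12 genes), 26 of interleukins (23 genes), 34 of interleukin receptor chains (24 genes) and 4 of antagonists or binding proteins (4 genes). A pair of probe sets annotated to Il13ra1 together with a pseudogene carries several symbols and was left out.

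The kidneys came from 3 Dahl salt-sensitive (Dahl S) rats, an inbred strain that becomes hypertensive on a high-salt diet, and from 3 Lewis rats, an inbred strain of another origin, each hybridized to its own array. All 6 males ate food with 8% NaCl for 8 weeks from an age of 5 weeks, so no group was free of salt loading, and inherited strain differences and responses to salt cannot be told apart. Lewis rats are not a congenic partner of Dahl S rats, and the signals were not corrected for differences in probe sequence between the strains, whose part in the results was not tested. The numbered rats are separate animals per the labels.

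Chemokines are small secreted or membrane-bound proteins that guide leukocytes along gradients by binding G protein-coupled receptors, and they are classed as CC, CXC or CX3C by the spacing of their first cysteines. Interleukins are cytokines that act on receptors built from a ligand-specific chain and a shared signalling chain, many of them through JAK kinases and STAT transcription factors, and those of the IL-1 family through MyD88 and NF-κB. In the kidney, tubular epithelium, endothelium, fibroblasts and resident or recruited leukocytes can all make or sense them.

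Values below are normalized signals, quantile-normalized between arrays on the log2(signal + 16) scale and turned back to a linear scale. Log2 differences are Dahl S minus Lewis on that log2 scale with its pseudocount of 16, so the folds of dim genes come out too small. A probe set was tested if it exceeded the median of all values, a normalized signal of 61.6, on at least 3 of the 6 arrays. A difference passed at an adjusted p under 0.05. Levels of different probe sets cannot be set against each other.

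The arrays had deposited trimmed mean signals of 204 to 249 in Dahl S and 118 to 229 in Lewis before normalization. Among 7 kidney marker genes measured, including Umod and Slc12a1 of the thick ascending limb, Slc34a1 of the proximal tubule and Nphs1 of podocytes, all 7 were above the filter level and 0 passed the threshold in the brightest probe set (limma; 0 higher and 1 lower at an unadjusted p under 0.05). A second Slc34a1 probe set was lower in Dahl S (-0.62, adjusted p = 0.0022). Of all 15797 tested probe sets, 1343 were higher and 1224 lower in Dahl S, and 616 and 58 without normalization, where the median of all tested probe sets was 0.41 higher in Dahl S.

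Of the 116 probe sets of these families, 38 (32 genes) were bright enough to be tested. In Dahl S 16 of them, from 13 genes, were higher, 2 were lower and 20 did not pass. Among all tested probe sets 8.5% were higher and 7.75% lower. Called were 47.4% of the tested members, against 16.2% of all tested probe sets. The genes with a higher probe set were the chemokine ligands Ccl21, Ccl2, Cxcl16, Ccl6, Ccl20, Cxcl10 and Cxcl12 (for Cxcl12, 1 of 3 probe sets), the interleukins Il1b, Il7 and Il34, the receptor chains Il6st and Il10rb, and the binding protein Il18bp. The 2 that fell were the B cell chemokine Cxcl13 and the chemokine receptor Ccr10. In whole tissue, fewer cells of a type and less RNA per cell cannot be told apart.

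The median log2 difference was 0.25 over the tested members and 0.00 over all tested probe sets. Above the filter level on all 6 arrays were 29 of the 38 tested members, with 12 higher and 1 lower. The matching share over all probe sets above that level on all 6 arrays was not computed. Ccl20, Il1b and Il7 passed the filter through the Dahl S arrays alone, so the filter itself favoured a difference in them. With all 116 members in the fit and no filter, 15 were higher and 1 was lower, against 3.5% higher and 3.05% lower of all probe sets, and the median was 0.09. In that fit Ccl20, Cxcl12, Il34, Il18bp, Ccr10 and 1 Il6st probe set missed the threshold. Without normalization 7 were higher and 0 lower, against 3.9% and 0.367% of all tested probe sets, and those 7 were Ccl21, Ccl2, Cxcl16, Ccl6, Ccl20, Il1b and Il7. Without Dahl S replicate 1 the count of higher members was 10.

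**Figure D1:**
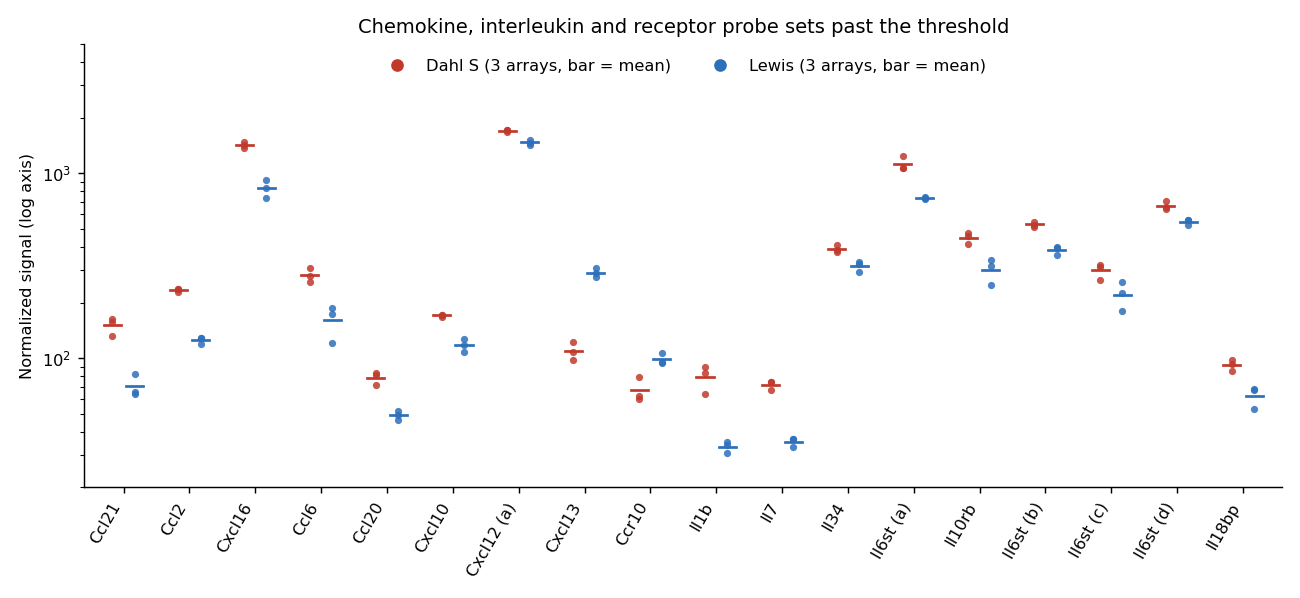
Normalized signal (log axis) of the 18 probe sets that passed the threshold, in 3 Dahl S arrays (red, left of each pair) and 3 Lewis arrays (blue, right), with a bar at each mean; letters tell probe sets of 1 gene apart. The ranges of the strains are separate for each probe set shown, with Dahl S above in 16 and below for Cxcl13 and Ccr10.

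Among chemokine ligands 15 probe sets of 13 genes were tested, and 7 were higher, 1 lower and 7 not past the threshold. CC ligands accounted for 4 of the higher probe sets out of 7 tested. A positive difference was found in 7 of 7, against 50.2% of all tested probe sets. Over all 17 CC ligand probe sets without a filter the median was 0.04, with strain ranges above in Dahl S in 7 and below in 2. CXC ligands accounted for 3 higher and 1 lower out of 7. The single CX3C ligand did not pass.

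Ccl2, the monocyte chemoattractant that binds CCR2, had normalized signals of 227, 236 and 237 in Dahl S arrays 1, 2 and 3, against 119.5, 128 and 128 in Lewis arrays 1, 2 and 3. All Dahl S values lay above all Lewis values, and the replicates were close. The difference was 0.82 (SE 0.10, 1.77-fold, adjusted p = 9.8e-05). Its neighbours in the genome, Ccl7 and Ccl11, were too dim to be tested, with 6.72 to 21.8 in Dahl S and 5.86 to 21.2 in Lewis for Ccl7, also a CCR2 ligand.

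Ccl21, which draws CCR7-bearing T cells and dendritic cells and is made by lymphatic endothelium and lymph node stroma, had 157, 131 and 163 in Dahl S and 63.8, 82.1 and 65.9 in Lewis. All Dahl S values were above all Lewis values (0.94, SE 0.13, 1.92-fold, adjusted p = 3.8e-04). Ccl19, the other CCR7 ligand, had 93.7, 95.3 and 67.9 in Dahl S and 63.1, 88.3 and 98.1 in Lewis. The Ccl19 ranges overlapped, and its difference of 0.04 had a 95% interval of -0.32 to 0.40.

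Ccl6, a CC chemokine known from mouse as a product of macrophages, had 308, 257 and 277 in Dahl S and 121, 187 and 174 in Lewis, a difference of 0.76 (SE 0.14, adjusted p = 0.0029). It lies in a genomic run of CC genes with Ccl5, Ccl9, Ccl3 and Ccl4. Of that run Ccl5, which attracts T cells and monocytes, was chosen after its values were seen. It had 84.9, 83.5 and 90.8 in Dahl S and 55.8, 70.3 and 60.2 in Lewis, and missed the threshold (0.39, SE 0.13, adjusted p = 0.059) although the strain ranges were apart. The rest of the run was also added after its values were seen. Ccl4 differed by 0.07 (adjusted p = 0.808), with overlap. Ccl3 and Ccl9 were not tested. Ccl3 averaged 51.2 in Dahl S and 35.1 in Lewis, with ranges apart. Ccl9 averaged 22.3 in Dahl S and 41.6 in Lewis, with overlap.

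Ccl20, the ligand of CCR6 on Th17 and B cells and a product of stimulated epithelium, had 80.8, 82.9 and 71.8 in Dahl S and 46.6, 51.8 and 49.2 in Lewis. The strains were separate (0.53, SE 0.13, adjusted p = 0.016), but all Lewis signals were below the filter level. The call was lost without Dahl S replicate 1 (adjusted p = 0.073) or replicate 2 (0.075), and the difference was 0.33 with a pseudocount of 64.

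Cxcl16, a transmembrane chemokine and scavenger receptor that binds CXCR6 on T and NKT cells, had 1477, 1416 and 1367 in Dahl S and 922, 835 and 737 in Lewis. It rose 1.70-fold (0.77, SE 0.09, adjusted p = 7.3e-05), with a wide gap between the strains. Cxcl10, the interferon-induced ligand of CXCR3, had 171, 168 and 172 in Dahl S and 108, 127 and 118 in Lewis, a difference of 0.48 (SE 0.10, adjusted p = 0.0077).

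The genomic neighbours of Cxcl10 share its receptor and did not pass. Cxcl11 had 408, 401 and 429 in Dahl S and 378, 393 and 442 in Lewis, with overlapping ranges and a 95% interval of -0.16 to 0.22 for the difference. Cxcl9, chosen after its values were seen, was too dim to be tested: the probe set whose strains were apart averaged 36.4 ± 2.06 in Dahl S and 24.7 ± 2.31 in Lewis (SD, n = 3 each), and the other overlapped.

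Cxcl13, made by follicular stroma and some macrophages and known for drawing CXCR5-bearing B cells, went the other way. Its signals were 123, 98.1 and 108 in Dahl S and 306, 289 and 276 in Lewis. The ranges were far apart. The log2 difference of -1.29 (SE 0.11, a 2.44-fold lower signal, adjusted p = 6.4e-06) passed the threshold. Without any 1 array the difference stayed between -1.36 and -1.22. Without normalization it was -0.87 and did not pass (adjusted p = 0.081).

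Cxcl12, the homeostatic ligand of CXCR4, was bright, and its 3 probe sets disagreed. One had 1717, 1717 and 1669.6 in Dahl S and 1429, 1464 and 1514 in Lewis and passed at 0.21 (SE 0.06, adjusted p = 0.038), but missed the threshold once any 1 Dahl S array or Lewis replicate 2 was left out. The second, the brightest over all arrays, differed by 0.10 (adjusted p = 0.405) with overlapping ranges. The third differed by -0.21 (adjusted p = 0.123), with ranges apart and Dahl S below. No single direction can be given for the gene. Cx3cl1, the membrane-bound fractalkine, had 629, 673 and 628 in Dahl S and 948, 641 and 606 in Lewis, where replicate 1 stood above the other arrays. Its difference of -0.15 had an interval of -0.45 to 0.14 and was 0.04 without Lewis replicate 1.

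Promoter sequences of 3 of these ligands are shown because they are known targets of cytokine-induced transcription factors, or, for Cxcl13, because it moved opposite to the rest. Each is the 250 bases before the annotated start in RefSeq on GRCr8, read 5′ to 3′ on the gene's strand. Capitals mark matches, on either strand and allowing overlap, to GGAANNNCC, a pattern contained in many NF-κB sites, or to GAAANNGAA, one contained in many interferon response elements.
Cxcl10, chr14:15988816-15989065, plus strand: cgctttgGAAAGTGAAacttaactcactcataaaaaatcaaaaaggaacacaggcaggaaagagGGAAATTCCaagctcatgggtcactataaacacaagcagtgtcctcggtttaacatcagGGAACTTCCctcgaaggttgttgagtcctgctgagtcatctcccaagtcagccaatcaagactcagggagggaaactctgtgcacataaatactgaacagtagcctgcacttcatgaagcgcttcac
Ccl20, chr9:91836909-91837158, plus strand: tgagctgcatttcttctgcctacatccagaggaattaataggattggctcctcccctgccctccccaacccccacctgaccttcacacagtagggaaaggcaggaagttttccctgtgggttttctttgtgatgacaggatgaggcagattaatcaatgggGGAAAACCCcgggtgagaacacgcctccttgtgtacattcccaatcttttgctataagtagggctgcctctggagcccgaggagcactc
Cxcl13, chr14:13917921-13918170, minus strand: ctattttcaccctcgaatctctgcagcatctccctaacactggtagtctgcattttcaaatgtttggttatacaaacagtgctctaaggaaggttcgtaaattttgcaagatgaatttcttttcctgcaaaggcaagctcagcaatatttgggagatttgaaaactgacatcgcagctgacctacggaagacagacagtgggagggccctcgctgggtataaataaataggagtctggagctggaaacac

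The Cxcl10 window held both patterns, the Ccl20 window held the first, and neither string of letters is in the Cxcl13 window. Among 33469 RefSeq promoters of this length 15.4% held the first pattern and 8.12% the second. Of the 13 genes with a higher probe set, 10 had a promoter entry. The first pattern was in 5 of these (Ccl20, Ccl21, Ccl6, Cxcl10 and Il10rb), the second in 2 (Cxcl10 and Il6st). Of the 13 genes with an entry and a tested probe set that did not pass, 6 held the first pattern and 2 the second. Cxcl12, with probe sets of both kinds, is counted in both groups and held neither pattern. Over all member genes with an entry, the first pattern was in 26 of 69 and the second in 7. A match is a string of letters, and no binding was measured.

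Chemokine receptors were mostly too dim to be tested: 12 of 15 probe sets fell under the filter. Of the 3 tested, 0 were higher, 1 was lower and 2 did not pass (limma; 0 higher and 2 lower at an unadjusted p under 0.05). Ccr10, the receptor for CCL27 and CCL28 on skin- and mucosa-homing lymphocytes, had 79.5, 62.4 and 60.4 in Dahl S and 95.9, 107 and 94.4 in Lewis. The ranges were apart (-0.47, SE 0.13, adjusted p = 0.032), but the call was lost without Dahl S replicate 2 or 3 or Lewis replicate 2 (adjusted p 0.11, 0.14 and 0.10). Its ligand Ccl28 did not pass the filter, with 56.7, 53.1 and 64.2 in Dahl S and 40.6, 47.7 and 52.4 in Lewis, Dahl S above. Its other ligand Ccl27, chosen after its values were seen, was also not tested. It had 51.0, 51.0 and 53.0 in Dahl S and 67.1, 60.7 and 80.2 in Lewis, with ranges apart and Dahl S below.

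Cxcr5, the receptor of CXCL13 on B cells, had 77.8, 149 and 109.9 in Dahl S and 163, 125 and 183 in Lewis in its tested probe set, a difference of -0.45 (SE 0.19, adjusted p = 0.127). The ranges overlapped through Dahl S replicate 2. Without that array the difference was -0.65 and passed (adjusted p = 0.039). The other Cxcr5 probe set was below the filter and its strains overlapped. Cx3cr1, the fractalkine receptor of monocytes and resident macrophages, scattered widely within each strain, with 67.1, 42.7 and 76.9 in Dahl S and 27.1, 72.8 and 58.4 in Lewis (interval -0.33 to 0.77).

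Among the chemokine receptors of these families, those of chemokine ligands that rose gave no test. For CCR7 and CXCR6, the receptors of CCL21 and CXCL16, no probe set was among the members. Ccr2 had 22.7, 20.5 and 18.6 in Dahl S and 16.1, 20.1 and 18.5 in Lewis, far under the filter level. Ccr6 stayed between 3.17 and 3.29 in Dahl S and between 3.07 and 4.97 in Lewis. Cxcr3 had 60.2, 35.4 and 62.4 in Dahl S and 47.4, 44.0 and 18.4 in Lewis. None of these passed the threshold in the fit without a filter. Of the 3 Cxcr4 probe sets, 1 had 77.6, 61.2 and 88.0 in Dahl S and 39.8, 52.0 and 52.4 in Lewis, with ranges apart, and the others overlapped.

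**Figure D2:**
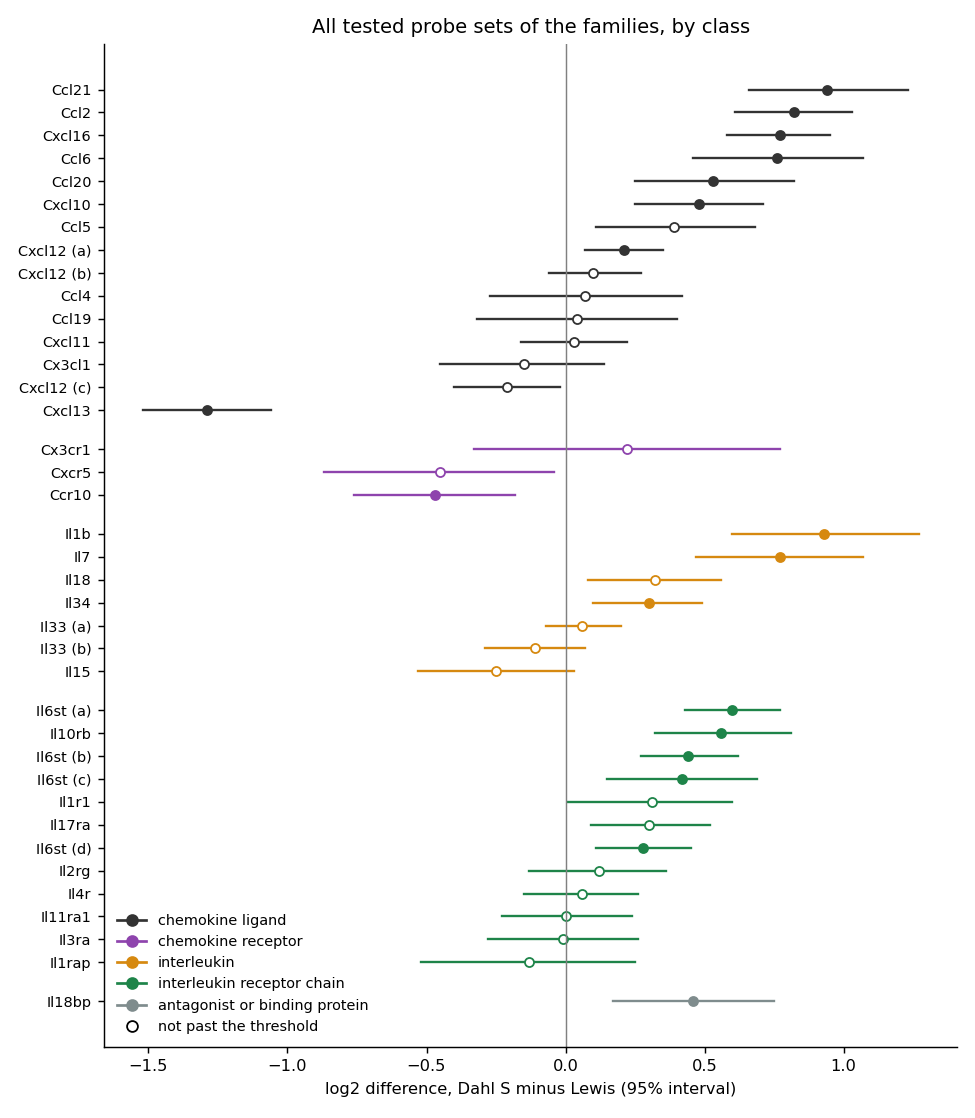
Log2 difference (Dahl S minus Lewis) with its 95% interval for all 38 tested probe sets, grouped by class and ordered by size; filled points passed the threshold and open points did not. Cxcl13 at -1.29 stands apart from the other ligands, and interleukin receptor chains lie between -0.13 and 0.60.

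Of 26 interleukin probe sets 7 were tested, and 3 were higher, 0 lower and 4 not past the threshold (limma; 4 higher and 0 lower at an unadjusted p under 0.05). Il1b, the inflammatory cytokine released after inflammasome cleavage, had 82.8, 89.1 and 64.2 in Dahl S and 35.4, 30.6 and 33.9 in Lewis. All Dahl S values were above all Lewis values (0.93, SE 0.15, 1.91-fold, adjusted p = 0.0013), while the Lewis signals lay under the filter level. The size depended on the pseudocount, being 0.55 with 64. Il1a, its neighbour and an agonist of the same receptor, was too dim to be tested in both its probe sets.

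Il7, a stromal and epithelial survival factor for lymphocytes, had 74.0, 67.1 and 74.0 in Dahl S and 33.2, 36.5 and 36.4 in Lewis. Its strains were well separated (0.77, SE 0.14, 1.71-fold, adjusted p = 0.0025), again from Lewis signals under the filter level, and the difference was 0.45 with a pseudocount of 64. The other Il7 probe set was dimmer and was not tested. Il34, a ligand of the macrophage receptor CSF1R that tubules can make, had 386, 408 and 375 in Dahl S and 291, 332 and 322 in Lewis. It rose by 0.30 (SE 0.09, adjusted p = 0.041), and the call was lost when any 1 array other than Lewis replicate 2 was left out.

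Il33, Il18 and Il15 were tested and did not pass. Il33, a nuclear alarmin of stromal and endothelial cells, had 1448, 1440.0 and 1460.3 in Dahl S and 1384, 1381 and 1399 in Lewis in its brighter probe set. Those ranges were apart, yet the difference was only 0.06 (interval -0.07 to 0.20). The other probe set gave -0.11, with ranges also apart and Dahl S below. Il18, an epithelial cytokine activated by caspase-1, had 136, 158 and 135 in Dahl S and 116, 109 and 109 in Lewis (0.32, SE 0.11, adjusted p = 0.069), with ranges apart. Il15, which sustains NK and memory T cells, ran the other way at -0.25 (SE 0.13, adjusted p = 0.216). It had 98.3, 84.8 and 98.3 in Dahl S and 134, 103 and 108 in Lewis, with ranges apart.

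Several other interleukins were near the bottom of the scale. Il6 had 11.9, 6.18 and 13.1 in Dahl S and 8.27, 7.72 and 9.78 in Lewis, and Il4 had 4.44, 7.29 and 6.34 in Dahl S and 17.9, 8.27 and 15.9 in Lewis. Il10, Il11 and Il17f were under 10 on every array. The Il4 ranges were apart, with Dahl S below, and none of these genes passed the threshold without a filter. Il24, an IL-10 family cytokine chosen after its values were seen, had 40.2, 39.5 and 50.3 in Dahl S and 18.1, 1.86 and 12.3 in Lewis. It was not tested, and without a filter it gave 1.19 (SE 0.24, adjusted p = 0.021).

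Interleukin receptor chains had 12 of 34 probe sets tested, of which 5 were higher, 0 lower and 7 not past the threshold (limma; 7 higher and 0 lower at an unadjusted p under 0.05). These 5 come from only 2 genes. Il6st encodes gp130, the signalling chain shared by IL-6, IL-11, LIF and oncostatin M, and all 4 of its probe sets were higher. The brightest had 1066, 1239 and 1072 in Dahl S and 724, 734 and 747 in Lewis (0.60, SE 0.08, 1.52-fold, adjusted p = 2.5e-04). The others gave 0.44, 0.42 and 0.28 (adjusted p = 0.003, 0.04 and 0.031). The calls at 0.42 and 0.28 were each lost without Dahl S replicate 1 or 3 or Lewis replicate 2, the first also without Lewis replicate 3 and the second also without Dahl S replicate 2.

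Il6r, the chain that gives gp130 its specificity for IL-6, fell just under the filter and was chosen after its values were seen. It had 72.0, 76.9 and 60.2 in Dahl S and 42.7, 38.5 and 36.0 in Lewis, with ranges apart (0.64, SE 0.15, adjusted p = 0.039 without a filter). Il11ra1, the IL-11-specific chain, had overlapping values of 196, 222 and 240.0 in Dahl S and 198, 227 and 230.2 in Lewis (interval -0.23 to 0.24).

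Il10rb, the chain shared by receptors for IL-10, IL-22 and type III interferons, had 414, 476 and 458 in Dahl S and 250.1, 315 and 338 in Lewis. It rose 1.48-fold (0.56, SE 0.11, adjusted p = 0.0048), with no overlap. Its partner Il10ra, carried by leukocytes and chosen after its values were seen, did not pass the filter, with Dahl S replicate 3 and all Lewis arrays under its level. One Il10ra probe set had 76.5, 102 and 56.7 in Dahl S and 7.33, 14.6 and 34.3 in Lewis and gave 1.49 without a filter (SE 0.29, adjusted p = 0.018). Its other probe set overlapped between strains.

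Several widely expressed chains did not pass. Il17ra, through which IL-17 acts on epithelium, had 239.8, 239 and 270.4 in Dahl S and 211, 195 and 191 in Lewis, just short of the threshold (0.30, SE 0.10, adjusted p = 0.051), and it passed without Lewis replicate 1 (0.35, adjusted p = 0.030). Il2rg, the common gamma chain, had 138, 137 and 119 in Dahl S and 115, 133 and 112 in Lewis, with overlap and an interval of -0.13 to 0.36. Il4r had 236, 209 and 241 in Dahl S and 219, 226 and 213 in Lewis, likewise overlapping, with an interval of -0.15 to 0.26.

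Il1r1, the signalling IL-1 receptor, had 131, 102 and 121 in Dahl S and 78.4, 106 and 93.5 in Lewis in its tested probe set, with overlap (0.31, SE 0.13, adjusted p = 0.151). The decoy Il1r2 was between 3.45 and 12.5 in Dahl S and between 0.50 and 3.29 in Lewis, too dim to be tested. Il7r, the IL-7 receptor of lymphocytes, had 1 dim probe set with 21.1, 15.0 and 21.0 in Dahl S and 6.20, 3.14 and 7.19 in Lewis, which gave 0.70 without a filter (SE 0.16, adjusted p = 0.031), and another whose strains overlapped. Il1rl1, the IL-33 receptor ST2, was dim in both its probe sets, with 10.9 to 21.3 in Dahl S and 6.18 to 12.8 in Lewis and ranges apart in each.

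Among antagonists and binding proteins Il18bp, which neutralizes IL-18, was the only 1 of 4 tested. It had 97.8, 93.3 and 85.4 in Dahl S and 53.2, 68.4 and 66.9 in Lewis (0.46, SE 0.13, 1.38-fold, adjusted p = 0.034). Its strains were apart, but the call was lost without any 1 Dahl S array or Lewis replicate 1 (adjusted p 0.072 to 0.13). Il1rn, the IL-1 receptor antagonist, was under 10 on every array.

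**Figure D3:**
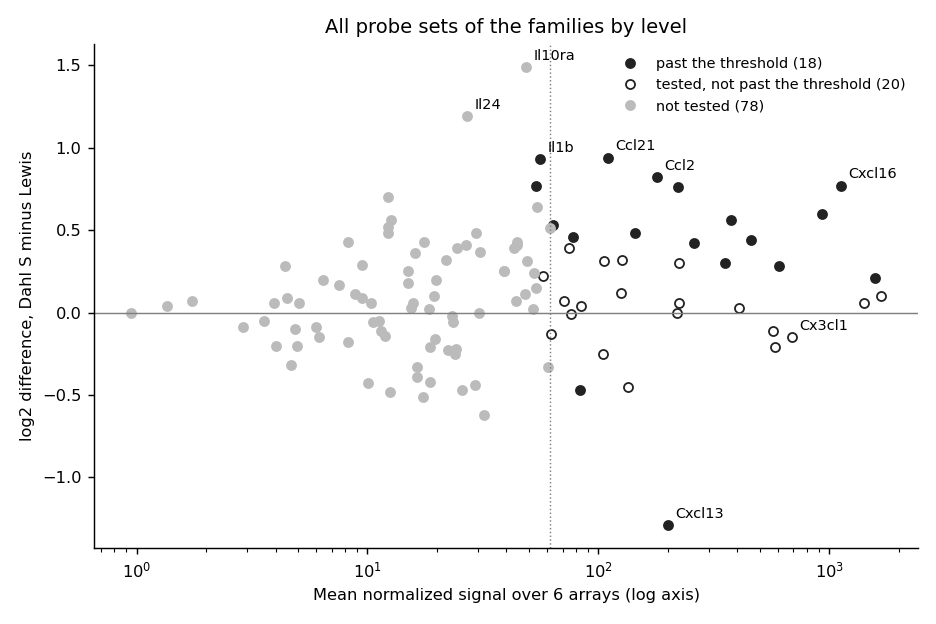
Log2 difference (Dahl S minus Lewis, fit without a filter) against the mean normalized signal over the 6 arrays (log axis) for all 116 probe sets, with black points past the threshold, open points tested and not past, and grey points not tested; the dotted line is the filter level of 61.6. Most members lie left of the line, where Il10ra and Il24 have the largest differences.

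In the 78 members that were not tested, strain ranges overlapped in 57, lay above in Dahl S in 16 and below in 5. Without a filter 4 of them passed, all higher in Dahl S, namely Il24 and 1 probe set each of Il10ra, Il6r and Il7r. Of the 38 tested members, strain ranges did not overlap in 25, with Dahl S above in 20 and below in 5. Over all tested probe sets the ranges were apart in 34.4%, with Dahl S above in 17.6% and below in 16.9%. Tested or not, Dahl S lay above in 36 and below in 10 of the 116 members. Over all 31042 probe sets it lay above in 4063 and below in 3963. Shares over untested probe sets alone were not computed.

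Of 84 listed genes that act beside or downstream of these receptors, 48 were tested, 10 were higher, 3 lower and 35 did not pass, with a median of 0.07. Without normalization the 3 lower genes, Csf2rb, Pias1 and Nfkbib, missed the threshold. Of all tested probe sets 16.2% were called, 8.5% higher and 7.75% lower. Among 18 tested genes of IL-1 and NF-κB signalling 2 were higher and 1 lower by their brightest probe set, a share close to that of all tested probe sets. Tollip, counted as not past at -0.03, had other probe sets that were lower, at -0.30 and -0.37 (adjusted p = 0.043 and 0.012). Pycard, the inflammasome adaptor ASC, had 182, 189 and 215 in Dahl S and 124, 87.5 and 90.4 in Lewis (0.87, SE 0.13, adjusted p = 7.8e-04), with ranges apart. Tnfaip3, the NF-κB feedback inhibitor A20, rose, with a difference of 0.66 and a standard error of 0.19 (adjusted p = 0.034). It missed the threshold when Dahl S replicate 2 or 3 or Lewis replicate 1 or 2 was left out. Nfkbib, which encodes the inhibitor IκBβ, was lower, at -0.48 with a standard error of 0.13 (adjusted p = 0.024), and missed it when Dahl S replicate 2 or 3 or Lewis replicate 2 was left out. Nfkb1, Rela, Myd88 and Nfkbia did not pass.

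In the JAK-STAT list 4 of 15 tested genes were higher and 2 lower by their brightest probe set. Lifr, named after its values were seen, was higher by 0.56 (adjusted p = 0.037) in that probe set and differed by 0.17 (adjusted p = 0.533) in another. Cish, a STAT5-induced feedback inhibitor, had 272, 271 and 285 in Dahl S and 155, 169 and 143 in Lewis (0.77, SE 0.10, adjusted p = 1.9e-04). Stat3, the main transducer of gp130 and named after its value was seen, was higher by 0.37 (SE 0.07, adjusted p = 0.0043) in its brighter probe set and differed by 0.12 (adjusted p = 0.556) in another. Csf2rb, the chain shared by receptors for IL-3, IL-5 and GM-CSF, was lower in Dahl S. It had 141, 177 and 149.6 in Dahl S and 441, 348 and 328 in Lewis, far apart (-1.17, SE 0.12, adjusted p = 4.8e-05). Pias1, an inhibitor of cytokine-induced transcription, was lower, at -0.54 with a standard error of 0.11 (adjusted p = 0.0056), in its brighter probe set, while another gave 0.04 (adjusted p = 0.844).

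Chemokine receptor signalling genes gave 3 higher and 0 lower of 7 tested by their brightest probe set (limma, 4 and 0 at an unadjusted p under 0.05). Grk6 and Rgs2, named after their values were seen, were higher by 0.53 and 0.50 in that probe set. Another tested probe set of each did not pass (-0.15 and 0.22, adjusted p = 0.383 and 0.248). Rac2, a small GTPase of leukocyte chemotaxis, had 225, 314 and 233 in Dahl S and 112, 170.4 and 185 in Lewis (0.68, SE 0.17, adjusted p = 0.017), without overlap, and the call was lost without Dahl S replicate 2 (adjusted p = 0.082). CSF and TNF genes gave 1 higher of 5 tested, Csf1r, the receptor of IL-34 and CSF1 (0.48, SE 0.11, adjusted p = 0.013). Of 3 tested atypical or other chemokine genes 0 passed (limma, also 0 at an unadjusted p under 0.05), the scavenging receptor Ackr3 among them (0.08, SE 0.08). Xcl1 and Ackr4 of that list were not tested and were chosen after their values were seen. Xcl1 had 27.6, 34.0 and 18.4 in Dahl S and 2.29, 1.45 and 3.29 in Lewis. Ackr4 went the other way, with 13.8, 15.1 and 17.2 in Dahl S and 18.2, 18.4 and 24.0 in Lewis.

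**Figure D4:**
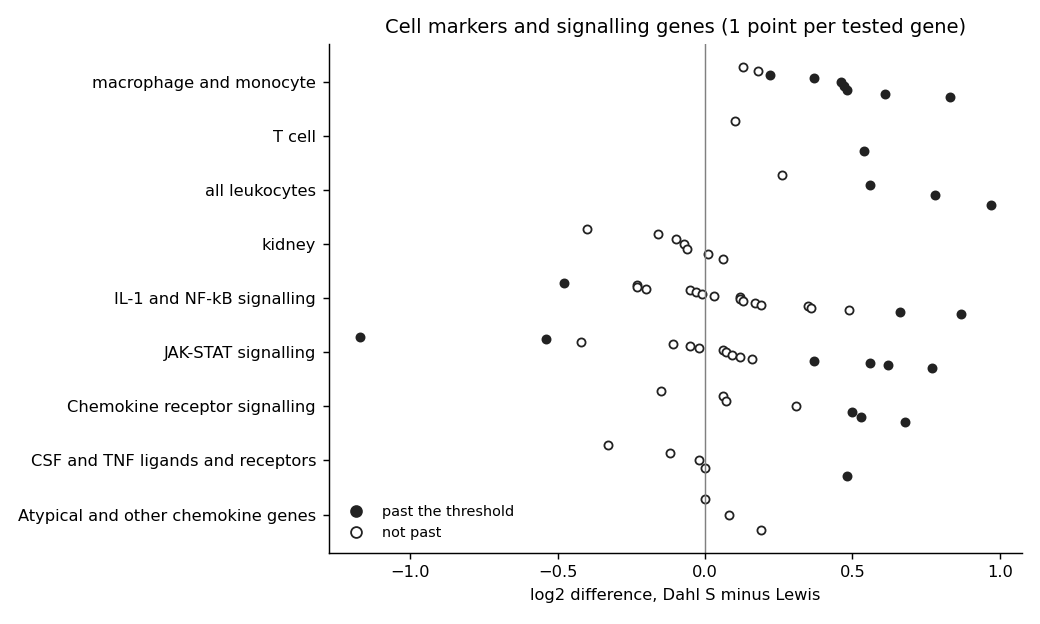
Log2 difference (Dahl S minus Lewis) of each tested gene in 4 lists of cell markers and 5 lists of signalling genes; filled points passed the threshold. Macrophage and pan-leukocyte markers lie at or right of 0.13, kidney markers lie around 0, and Csf2rb is the leftmost point at -1.17.

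Leukocyte markers were examined beside the ligands, against shares of 8.5% higher and 7.75% lower over all tested probe sets. Of 12 macrophage and monocyte markers 11 had a probe set and 9 were tested, 7 higher and 0 lower (limma; the same counts at an unadjusted p under 0.05), with a summed normalized signal of 5159 to 5333 in Dahl S and 4156 to 4380.1 in Lewis. Lyz2 made up most of that sum, with means of 3389 in Dahl S and 2900 in Lewis (0.22). Itgam and Cd163 were far under the filter level. Their means of 3.50 and 5.15 in Dahl S were below the 4.74 and 7.94 in Lewis, with overlapping ranges. Pan-leukocyte genes were higher in 3 of 4, led by Ptprc (0.97, SE 0.11, adjusted p = 7.3e-05), and summed to 1181 to 1276 in Dahl S and 730.2 to 838 in Lewis.

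T cell markers had 8 of 9 with a probe set but only 2 tested. The kinase Lck was higher (0.54, adjusted p = 0.019), Cd4 did not pass, and the CD3 chains were under the filter. The list summed to 389 to 419 in Dahl S and 269 to 307 in Lewis. None of the 3 measured B cell and plasma cell markers or the 4 neutrophil markers was bright enough to be tested. B cell markers summed to 71.8 to 88.6 in Dahl S and 56.2 to 65.4 in Lewis, and neutrophil markers to 44.1 to 69.9 in Dahl S and 20.4 to 45.7 in Lewis. Markers of tubular injury were higher in 4 of 4. No measured marker was at 0 on all arrays. The part of these cells or of injured tubules in the chemokine and interleukin differences was not tested.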

How the data were processed

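Whole-kidney RNA was hybridized to 1 array per rat, for 3 Dahl S and 3 Lewis animals. The deposited table holds 1 linear signal intensity per probe set and array, computed by the authors with GeneChip Operating Software version 1.4, per the labels' design text; no scaling target or detection call is given in the sources used here. Array medians differed, so log2(signal + 16) was quantile-normalized, 16 being the lower quartile of all values. Leaving out 57 control probe sets left 31042, of which 15797 passed the filter. These were fitted in R 4.3.3 by limma 3.58.1, using lmFit followed by eBayes with a trended prior variance. Tests were two-sided and adjusted by the Benjamini-Hochberg method over all tested probe sets. All adjusted p-values are limma's, with n = 3 arrays per strain. An exact permutation test of 3 against 3 cannot go below 0.1. The number of arrays limits the precision.

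Gene symbols came from the platform annotation. All 116 member probe sets matched the RefSeq table of GRCr8 by gene identifier, with no change of symbol, and that table gave the genomic neighbours, taken as gaps under 1 Mb. Members, classes, lists, motifs and settings were chosen with earlier results of these data known. The genes named are, in each class, up to 8 past the threshold by size of the difference, up to 4 of the brightest that were not, their ligand or receptor partners, and up to 4 signalling genes in each direction; others are said to have been chosen after their values were seen. A gene with several probe sets was represented in lists by its brightest tested one. In simulated data 15658 probe sets were tested, Dahl S against Lewis. The steps recovered 34.3% of the probe sets shifted by 0.5 log2, 86.6% of those shifted by 1 and 98.5% of those shifted by 2. Of 151 calls 5 were false. The noise was independent and normal, and only probe sets with a mean above the median were shifted. They were far fewer than the probe sets called in the data, so these rates need not hold there. Alternatives changed the normalization, pseudocount, filter, variance trend, replicate block and arrays, with the tested probe sets held fixed except where the filter changed. The design text speaks of 3 independent experiments, so pairing by number was checked. Same-numbered rats showed little shared deviation (correlations of -0.05, -0.10 and 0.11 for numbers 1, 2 and 3), and the main fit did not pair the strains. So few arrays cannot exclude a weak effect shared by number.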

Additional observations from a re-analysis of the deposited data

How the results depend on the processing

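Without normalization between arrays the median over all tested probe sets was 0.41, with 616 probe sets higher and 58 lower. Of the members 7 were then higher and 0 lower (limma), made up of 5 chemokine ligands higher and 0 lower, 0 chemokine receptors lower, 2 interleukins higher and 0 receptor chains higher. The members' median was 0.64, against 0.25 after normalization, and 6 signalling genes were higher and 0 lower. At an unadjusted p under 0.05 those zeros would be 1 member (the ligand), 0 chemokine receptors, 7 receptor chains and 1 signalling gene. Sign changes were checked for the named genes only. Among their uncalled values, the sign changed there for a Cxcl12 probe set (0.24), Cx3cl1 (0.28), an Il33 probe set (0.34) and Il15 (0.15).

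Without a filter the median over all members was 0.09, 1 member and 0 chemokine receptors were lower, and 6 signalling genes were higher. The stricter filter, above the 60th percentile, gave a median of 0.29, 1 member and 0 chemokine receptors lower, and 1 interleukin higher, with fewer probe sets tested. The unadjusted count of lower chemokine receptors was 1 with either filter setting. The median was 0.30 with no pseudocount and 0.21 with a pseudocount of 64. Without a variance trend 3 receptor chain probe sets were higher. With 1 probe set per gene 12 members were higher and 2 lower, and with prefixes followed by any character 16 and 2. With the replicate block 12 members were higher and 2 lower, and 14 of the 18 calls among members were kept. The numbers gave no clear pairing of the rats. Dahl S 1 and 2 each correlated best with the Lewis array of the other number, and Dahl S 3 with its own. With so few arrays per strain, these correlations cannot exclude a weak effect shared by number.

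Leaving out 1 array gave 764 to 1451 probe sets higher and 727 to 1344 lower, 10 to 15 members higher and 1 to 2 lower, and a median of 0.20 to 0.29. It gave 5 to 7 ligands higher and 1 lower, 0 to 1 chemokine receptors lower, 2 to 3 interleukins and 3 to 6 receptor chains higher, and 6 to 11 signalling genes higher and 2 to 4 lower. Among the named genes, uncalled values that changed sign ran from -0.27 to 0.04 for Cx3cl1, -0.02 to 0.09 for Cxcl11, -0.12 to 0.17 for Ccl19, -0.09 to 0.44 for Cx3cr1 and -0.06 to 0.08 for Il11ra1. Ccl2, Ccl21, Cxcl16, Ccl6, Il1b and Il7 kept their calls under each alternative in which they were tested, and no called member changed sign in any. The cause of the other changes was not tested.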
